A study of Homo sapiens with 2 samples.

Results

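The populations compared here were doxorubicin-resistant and treatment-naïve SUM159 cells grown attached to plastic. All cells that the files assign to them entered the comparison, which gave 7032 doxorubicin-resistant and 5305 treatment-naïve cells of 18233 attached cells and 30122 cells in the series. SUM159 is a human triple-negative breast cancer (TNBC) line, and the labels give the genotype of both populations as Wt. The resistant cells had been made by long exposure to escalating doses of doxorubicin with recovery in drug-free medium, and the treatment-naïve cells were the untreated control. Both were kept in Ham's medium with serum, insulin and hydrocortisone, and the sources used here do not say whether drug was present at harvest. Transcripts of a breast cancer panel were counted in single cells on the BD Rhapsody platform, after the 3 attached populations (the third was paclitaxel-resistant) had been marked with sample tags and pooled on 1 cartridge. Each resistant population is 1 culture selected from 1 line, and the files were matched to populations by their names. More cell barcodes are present than cells were pooled per the labels, and every barcode was counted as a cell.

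Doxorubicin is an anthracycline that intercalates into DNA and traps topoisomerase II, so that it kills dividing cells above all. Cells can survive it by pumping it out through ATP-binding cassette (ABC) transporters, by changing how they pass through the cell cycle or by changing their differentiation state and the signals they secrete. A higher level in a whole population can come from many cells that each carry somewhat more of a transcript or from a few cells that carry a great deal, and counts in single cells separate these cases.

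The totals were 21423102 UMIs (unique molecular identifiers, each a counted molecule) in treatment-naïve and 29451390 in doxorubicin-resistant cells. The depth per cell was close, with a median of 3710 and 3814 UMIs and of 135 and 141 genes, and no barcode occurred in both populations. Each population is unreplicated, so no test was possible. The 95% intervals in parentheses, exact for Poisson counts, ratios of counts or shares of cells, cover counting error only, and the spread between cultures is unknown. Levels are given in CPM, the UMIs of a gene scaled to a population total of 1000000. A gene was called higher or lower at a CPM ratio (fold) of 2 or more, provided that the population with the higher level had 50 UMIs or more, and 268 genes with at least 50 UMIs in either population counted as measured.

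The cells of both populations had the transcripts of a mesenchymal TNBC line. VIM, the intermediate filament of mesenchymal cells, had a UMI in all but a few cells of each population. ERBB2, the HER2 receptor, had 748 CPM in treatment-naïve and 1166 CPM in resistant cells, which was under the size rule. ESR1, the oestrogen receptor, had only 14 UMIs in treatment-naïve and 154 in resistant cells, and a UMI was seen in 0.245% and 1.41% of cells. The progesterone receptor gene is not listed in the files. Stray counts were described by 17 blood-lineage genes that breast cancer cells should lack. Each had a UMI in at most 0.377% of treatment-naïve and 0.242% of resistant cells, with medians of 0.0189% and 0.0427%. These genes had 36 UMIs or fewer in each population. Other blood-lineage genes of the panel had more, such as CD3D, seen in 1.75% and 1.98% of cells, and CD79A, seen in 1.49% and 1.55%. Genes this rare cannot show how many molecules of an abundant transcript were carried over between populations, which was not tested.

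Of the 268 measured genes, 65 (24.3%) were higher in doxorubicin-resistant cells and 61 (22.8%) were lower. These shares are the background for the counts in every gene list below, and the lists were chosen with earlier results of these data known. The higher genes took 8.85% of all UMIs in treatment-naïve and 23.4% in resistant cells, whereas the lower genes went from 28.0% to 7.34%. The direction depended on the scaling, because the resistant population had more cells and more UMIs. Ratios of unscaled totals gave 97 higher and 47 lower genes, so that 67.4% of the calls were upward against 51.6% with CPM, and they moved the median log2 ratio of the measured genes from 0.13 to 0.59. Scaling by the median of ratios gave 56 higher and 65 lower genes with a median of −0.02. The genes nearest to the threshold on its inner side were PVR at 2.04-fold, MELK at 2.06-fold and XBP1 at 2.04-fold, and those nearest on its outer side were CD24 at 1.97-fold, SFN at 1.96-fold and KRT81 at 1.92-fold.

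**Figure D1:**
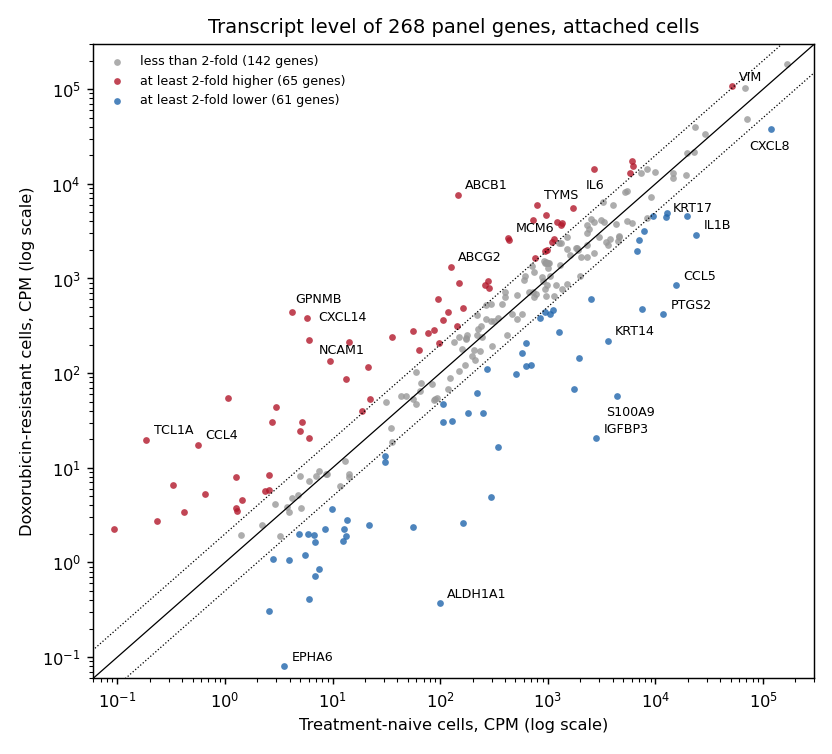
Transcript level of the 268 measured panel genes in treatment-naïve (horizontal axis) and doxorubicin-resistant attached cells (vertical axis), in CPM on log scales. Each point is a gene, the solid line marks equal levels and the dotted lines mark 2-fold; the 65 higher genes lie above the upper dotted line and the 61 lower genes below the other, with EPHA6, which had 0 UMIs in resistant cells, drawn at the bottom edge.

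The share of cells with a UMI moved with the level in nearly all of these genes. Among the 65 higher genes, 20 were seen in at least 50% of treatment-naïve cells and 33 in at least 50% of resistant cells, and 13 crossed that line upward while 0 crossed it downward. At a share of 90% the count of higher genes went from 5 to 17. Among the 61 lower genes, 26 were seen in at least 50% of treatment-naïve and 14 in at least 50% of resistant cells, with 12 crossings, all downward. A share of cells depends on depth, so shares were also computed for cells thinned to 1000 UMIs, a number that every cell of both populations reached. After thinning, the share was larger in resistant cells for 65 of 65 higher genes and for 0 of 61 lower genes.

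**Figure D2:**
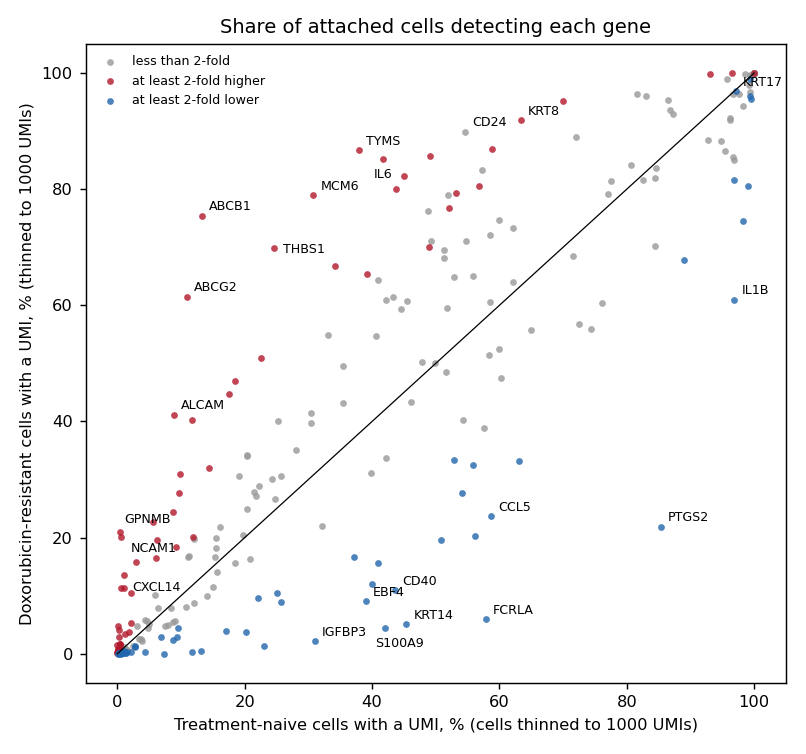
Share of cells with at least 1 UMI of each of the 268 measured genes after thinning every cell to 1000 UMIs, treatment-naïve cells on the horizontal and doxorubicin-resistant cells on the vertical axis, in percent. The line marks equal shares; all 65 higher genes lie above it and all 61 lower genes below it, and ABCB1 (13.3% and 75.4%), ABCG2 (10.9% and 61.5%) and IL6 (41.7% and 85.3%) are among the points farthest above.

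How evenly a transcript was spread was measured from how often 2 of its UMIs came from the same cell. The resulting effective share is the share of cells that would carry the transcript if all carriers had the same level, and it does not depend on depth. It was computed for genes with at least 200 UMIs, and a gene was described as held by a subset under 20% and as spread across the population from 50%. By that measure 55 of the higher genes could be described in resistant cells, of which 26 were spread across the population, 16 lay between the limits and 13 were held by a subset. The median effective share of these 55 genes was 48.5%, beside 55.3% for all measured genes that could be described in resistant cells.

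The 2 drug efflux transporters on the panel were higher, and both were detected in most resistant cells. ABCB1 (chr7:87503017-87713295, GRCh38.p14) encodes P-glycoprotein, a pump that exports doxorubicin and paclitaxel. It had 146 CPM in treatment-naïve and 7691 CPM in resistant cells. Cells with an ABCB1 UMI made up 36.7% (35.4 to 38) of treatment-naïve and 88.4% (87.7 to 89.2) of resistant cells, and cells with more than 5 UMIs made up 0.641% and 64.5%. ABCG2 (chr4:88090264-88231626), a second pump with broad substrates, had 126 and 1329 CPM, and cells with a UMI made up 30.9% and 88.2%. The treatment-naïve cells shared a cartridge with both resistant populations. The part of carried-over molecules in their pump UMIs was not tested.

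The pumps differed in how their transcripts were spread among the resistant cells. The effective share of ABCB1 was 19.8% in treatment-naïve and 22.3% in resistant cells, so its UMIs were about as unevenly held in both. The median resistant cell had 3095 CPM, less than the mean of the population, and 585 cells (8.32%) held 50% of all ABCB1 UMIs. ABCG2 became more even, with an effective share of 35.5% in treatment-naïve and 61.1% in resistant cells, and 1258 resistant cells (17.9%) held 50% of its UMIs.

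Resistant cells without any ABCB1 UMI numbered 814 (11.6%), and they were set beside the 4538 cells with more than 5. The former were shallower, with a median of 3342.5 against 4039 UMIs, and the part of depth in the missing UMI was not tested. Of 245 genes compared in CPM between these cells, 5 were at least 2-fold higher in the cells with ABCB1, namely CXCL14, ESR1, ICOSLG, TCL1A and TNF, and 1 was at least 2-fold lower, namely TNFSF4. IL6 differed by a log2 ratio of 0.18 and TYMS by 0.08 between them. The other 239 of the 245 genes differed by less than 2-fold. Most of the genes that differed by more had few UMIs in the cells without ABCB1. There, ESR1 had 6, ICOSLG 3, TNF 10, TCL1A 30 and TNFSF4 19, whereas CXCL14 had 578. No intervals were computed for these ratios.

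The genes of the G1/S transition and of DNA replication formed the largest of the gene lists in which every measured member was higher. E2F transcription factors switch on many such genes when a cell commits to division. All 12 measured members were higher in resistant cells, against 24.3% of all measured genes, with log2 ratios from 1.11 to 2.92 and a median of 2.04, beside 0.13 for all measured genes. The list was chosen with earlier results of these data known, so this count is a description. With median-of-ratios scaling 10 of the 12 were called higher, and RFC4 and CDK2 were not. Promoter sequences of 2 of these genes and of 2 mitotic genes are given here as examples of the motifs searched. Each line shows the 250 bases before the RefSeq transcription start on GRCh38.p14, 5′ to 3′ on the gene's strand. The positions are chr2:135876444-135876693 (minus) for MCM6, chr18:657403-657652 (plus) for TYMS, chr7:36389612-36389861 (plus) for ANLN and chr1:202341937-202342186 (minus) for UBE2T. Capitals mark E2F motifs in MCM6 and TYMS, CHR motifs in ANLN, and CHR and CCAAT motifs in UBE2T. No CCAAT motif is present in the ANLN window.
MCM6: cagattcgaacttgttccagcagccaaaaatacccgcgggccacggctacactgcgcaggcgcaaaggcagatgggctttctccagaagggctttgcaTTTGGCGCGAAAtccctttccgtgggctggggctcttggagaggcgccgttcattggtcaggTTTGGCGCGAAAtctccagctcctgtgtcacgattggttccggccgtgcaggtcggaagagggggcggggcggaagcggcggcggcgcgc
TYMS: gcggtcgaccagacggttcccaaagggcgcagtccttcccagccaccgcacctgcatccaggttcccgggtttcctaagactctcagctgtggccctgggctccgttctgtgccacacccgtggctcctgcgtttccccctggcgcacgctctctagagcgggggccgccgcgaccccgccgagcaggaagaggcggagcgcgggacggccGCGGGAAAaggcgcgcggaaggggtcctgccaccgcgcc
ANLN: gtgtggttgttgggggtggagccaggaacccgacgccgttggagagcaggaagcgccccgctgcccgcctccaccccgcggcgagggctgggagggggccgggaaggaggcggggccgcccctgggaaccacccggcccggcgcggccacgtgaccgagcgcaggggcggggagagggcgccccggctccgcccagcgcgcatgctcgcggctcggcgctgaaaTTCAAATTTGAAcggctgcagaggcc
UBE2T: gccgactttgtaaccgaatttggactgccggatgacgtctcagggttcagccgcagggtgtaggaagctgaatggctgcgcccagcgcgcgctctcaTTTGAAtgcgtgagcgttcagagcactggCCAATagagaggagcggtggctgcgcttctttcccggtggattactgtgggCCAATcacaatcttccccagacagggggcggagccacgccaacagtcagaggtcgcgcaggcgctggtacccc

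The E2F motif was searched as TTTGGCGC, TTTCCCGC, TTTCGCGC and TTTGCCGC, the cell cycle homology region (CHR) as TTTGAA and the CCAAT box as CCAAT, each on both strands of 300 bases around the start. An E2F match was found in 5 of the 10 G1/S promoters for which a sequence was at hand (50%). The share was 7.22% of 194 promoters of measured panel genes and 3.31% of all 35116 promoters. It was 2.56% of 39 promoters of higher genes outside the G1/S list and 2.22% of 45 promoters of lower genes. An E2F match was also found in 13.3% of 15 mitotic promoters. A CHR match was found in 11 of these 15 (73.3%), in 0 of the 10 G1/S promoters and in 15.2% of all promoters. CCAAT was found in 10 of the 15 mitotic promoters (66.7%), in 40% of the G1/S promoters and in 34.6% of all promoters. These matches describe the letters in the window and do not show that a factor was bound. E2F factors are known to act on many G1/S genes, so a larger share of matches follows from the kind of genes listed. Every measured G1/S gene was higher, so no unchanged member could be set beside them. A role of E2F in the higher levels was not tested.

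Among the enzymes of DNA synthesis, TYMS, thymidylate synthase, had 794 CPM in treatment-naïve and 6023 CPM in resistant cells. Its UMIs were seen in 69.7% and 95.5% of cells. RRM2, the small subunit of ribonucleotide reductase, had 725 and 4187 CPM and was seen in 58.5% and 79.9% of cells. Both were also spread more evenly in resistant cells, with effective shares of 26.1% and 59.4% for TYMS and of 30.9% and 45.3% for RRM2.

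The genes that license and fire replication origins followed the same pattern. MCM6, a subunit of the replicative helicase, had 430.3 and 2704 CPM, and its effective share was 39.7% and 61.5%. CDC6, which loads the helicase, had 276 and 931 CPM and was seen in 39.7% of treatment-naïve and 70.1% of resistant cells. CDC7, the kinase that activates the helicase, had 282 and 797 CPM, with effective shares of 57.6% and 80.6%. RFC4, a subunit of the sliding clamp loader, was 2.18-fold (2.15 to 2.22) higher, and DTL, an adaptor of a ubiquitin ligase that acts at replication forks, was 3.43-fold (3.25 to 3.62) higher.

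Of the regulators of S-phase entry, CCNE2, a cyclin E gene, was detected in the fewest cells. It had 35.5 CPM in treatment-naïve and 242 CPM in resistant cells and was seen in 9.99% and 33.9% of them. CCNE1, the other cyclin E gene, had 163 and 489 CPM and was seen in 37.5% and 61.4% of cells. Their partner kinase CDK2 had 763 and 1648 CPM, and it was the exception in evenness, with an effective share of 74.7% in treatment-naïve and 71.0% in resistant cells. The other 11 members of the group all had a larger effective share in resistant cells. MYBL2, a transcription factor that bridges S phase and mitosis, had 961 and 4728 CPM, and CDCA7, a chromatin protein expressed in S phase, had 149 and 897 CPM.

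Summed over the 12 genes, the median cell had 4044 CPM in the treatment-naïve and 19574 CPM in the resistant population. Of the resistant cells, 93.8% lay above the treatment-naïve median and 62.3% above the 95th percentile of treatment-naïve cells, which was 14909 CPM. Only 0.128% lay below the 5th percentile. The whole distribution was thus displaced, and no large group of resistant cells kept the low sums of treatment-naïve cells.

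The genes of G2 and mitosis were displaced in another way. Among 17 measured genes, 4 were called higher and 0 lower, beside 24.3% and 22.8% of all measured genes, with a median log2 ratio of 0.65. The count of higher genes was thus near the share over all measured genes, yet all 17 had a larger effective share in resistant cells. The scaling moved this count, to 10 higher genes without scaling and to ANLN and UBE2T alone with the median of ratios. ANLN, a scaffold of the cleavage furrow, had 1731 and 5610.4 CPM and was seen in 63.3% of treatment-naïve and 92.1% of resistant cells. UBE2T, a ubiquitin-conjugating enzyme, had 1361 and 3882 CPM and was seen in 74.7% and 96.9% of cells. CCNB1, cyclin B1, had 5837 and 12866 CPM, and MELK, a kinase of dividing cells, had 947 and 1948 CPM.

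Mitotic genes under the size rule were also found in more cells. KIF2C, a microtubule depolymerase, had 1827 and 2090.1 CPM, a ratio of 1.14, but it was seen in 59.0% of treatment-naïve and 73.7% of resistant cells. UBE2C, a ubiquitin-conjugating enzyme of the anaphase-promoting complex, had 3340.1 and 3949.8 CPM and was seen in 67.1% and 80.5% of cells. PTTG1, securin, had 8282 and 14332 CPM with effective shares of 42.4% and 57.5%. The sum over the 17 genes had a median of 7822 CPM per treatment-naïve and 49284 CPM per resistant cell. The difference was smaller at the top, since the 75th percentile was 65840 and 101222 CPM and only 12.6% of resistant cells exceeded the treatment-naïve 95th percentile. In other words, mitotic transcripts were present in a larger part of the resistant cells, and the cells that were richest in them differed less.

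**Figure D3:**
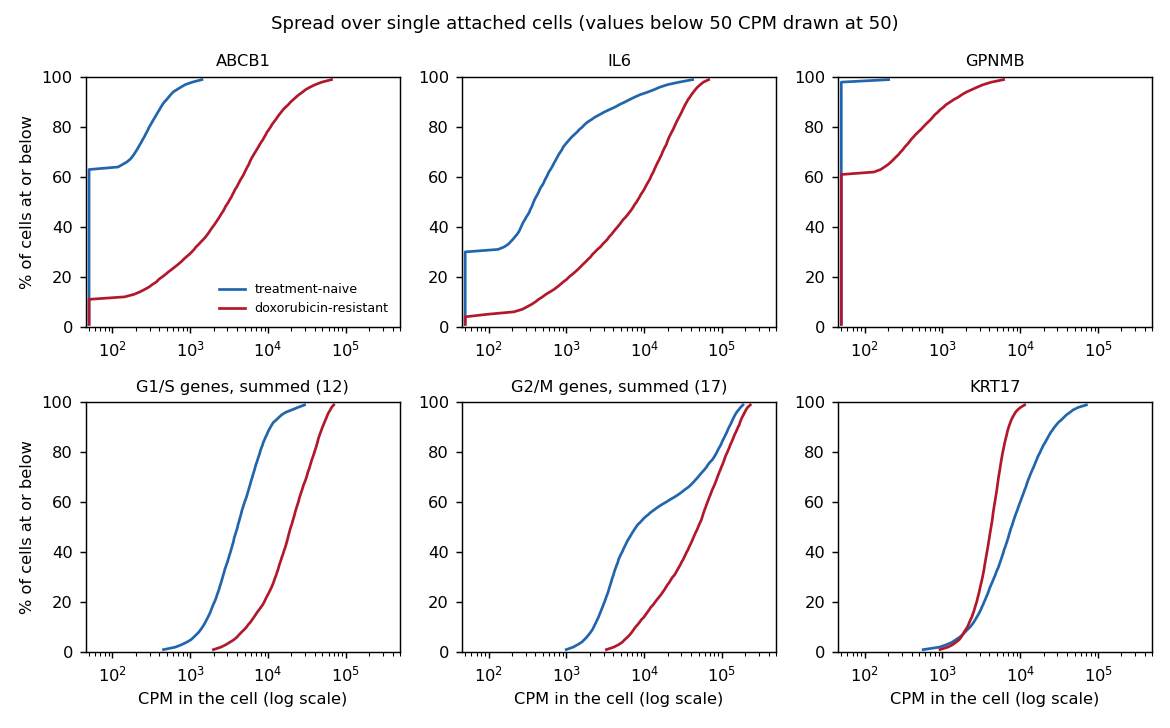
Cumulative share of cells (vertical axis, percent) against the level in the cell (horizontal axis, CPM on a log scale, values under 50 drawn at 50) for 4 genes and for the summed G1/S and G2/M genes, treatment-naïve cells in blue and doxorubicin-resistant cells in red. The red curves of ABCB1, IL6 and the G1/S sum lie to the right along their length, the GPNMB curve departs from the left edge only for the 38.6% of resistant cells with a UMI, and the KRT17 curve of resistant cells is steeper, with a median of 4209 CPM against 7672 CPM.

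Inflammatory genes moved apart from each other, with IL6 higher and most other abundant members lower. IL6, a cytokine that signals through STAT3, had 2707 CPM in treatment-naïve and 14212 CPM in resistant cells, which was 5.25-fold (5.20 to 5.30) higher. It was seen in 69.6% and 95% of cells, and the median cell had 379 and 7984 CPM. In treatment-naïve cells IL6 was held by a subset, with an effective share of 9.39% and 50% of its UMIs in 2.96% of the cells. In resistant cells the effective share was 41.0%, and 13.2% of the cells held 50% of its UMIs. IL6 was therefore both higher and carried by a larger part of the population.

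Of 18 measured inflammatory genes, 5 were higher and 8 lower, beside 24.3% and 22.8% of all measured genes, with a median log2 ratio of −0.48. CXCL8, the neutrophil chemokine interleukin-8, had 117868 CPM in treatment-naïve and 38345 CPM in resistant cells, and it was detected in nearly all cells of both. Its effective share was 60.4% and 56.1%, and 94.8% of resistant cells lay below the treatment-naïve median, so the lower level was found throughout the population. IL1B, interleukin-1β, had 24049 and 2906 CPM and was seen in 99.1% and 84.6% of cells, with effective shares of 45.9% and 24.4%. PTGS2, the inducible cyclooxygenase, had 11798 and 418 CPM and was seen in 95.1% and 49.5% of cells. The calprotectin subunits were lower as well, with 4383 and 56.7 CPM for S100A9 and 55.5 and 2.34 CPM for S100A8. TSLP, a cytokine of epithelial cells, had 107 and 30.5 CPM. The summed inflammatory genes had a median of 149085 CPM per treatment-naïve and 49311 CPM per resistant cell, and 3.01% of resistant cells lay above the treatment-naïve median. CXCL8 weighed most in this sum, with 117868 of 179488 CPM in the treatment-naïve and 38345 of 60600 CPM in the resistant population.

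Unlike CXCL8, the lower chemokine CCL5 was unevenly held already in treatment-naïve cells. CCL5, which attracts T cells and monocytes, had 15651 CPM in treatment-naïve cells with an effective share of 10.4%. In resistant cells it had 851 CPM, an effective share of 0.896% and 50% of its UMIs in 25 cells, although 59.5% of the cells had at least 1 UMI. CXCL12, the ligand of CXCR4, had 293 and 4.92 CPM and was seen in 26.0% and 1.82% of cells. The remaining higher members were held by small parts of the population. CXCL14 had 125 and 11355 UMIs, CCL4 12 and 516, TNF 55 and 248, and IL1RN, the interleukin-1 receptor antagonist, 129 and 610.

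The residual levels of the lower genes are given beside those of the paclitaxel-resistant cells, since all 3 populations shared a cartridge. As a percentage of the treatment-naïve level, ALDH1A1 had 0.378% in doxorubicin-resistant and 0.908% in paclitaxel-resistant cells, IGFBP3 0.730% in both, S100A9 1.29% and 2.42%, and CXCL12 1.68% and 1.60%. PTGS2 had 3.54% and 2.52%, FCRLA 3.83% and 4.13%, CCL5 5.44% and 5.54%, MME 4.78% and 33.6% and KRT14 6.07% and 0.957%. The part of molecules carried over between populations in these levels was not tested.

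Mesenchymal and matrix genes were called in both directions, while their summed level was larger in resistant cells. Among 24 measured genes, 3 were called higher and 4 lower, beside 24.3% and 22.8% of all measured genes, with a median log2 ratio of −0.10. Without scaling the counts were 7 and 2 and the median was 0.36, and with the median of ratios VIM was no longer called. VIM had 51347 and 107603 CPM, and its effective share of 85.5% and 91.7% placed it across both populations. CAV1, the coat protein of caveolae, had 6069.7 and 17484 CPM and effective shares of 62.1% and 86.1%. THBS1, thrombospondin-1, had 437 and 2555 CPM, and after thinning it was seen in 24.5% of treatment-naïve and 69.9% of resistant cells. THBS1 moved from a subset, at an effective share of 11.6%, to 37.8%. Summed over the 24 genes, the median cell had 218474 CPM in the treatment-naïve and 332322 CPM in the resistant population, and 68.5% of resistant cells lay above the treatment-naïve 95th percentile. Abundant genes weigh most in this sum, so it does not describe the typical member, whose median log2 ratio was −0.10. VIM alone made up 51347 of 217214 CPM in the treatment-naïve and 107603 of 327141 CPM in the resistant population.

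The lower members were a collagen, a proteoglycan, a contractile protein and a matrix protease. COL3A1 had 1965 and 146 CPM, and its effective share of 4.18% and 4.76% kept it in a small subset of both populations. DCN, decorin, had 219 and 61.6 CPM with effective shares of 1.82% and 0.826%, so that 29 resistant cells held 50% of its UMIs. ACTA2, smooth muscle actin, had 1110.2 and 470.1 CPM and was seen in 92.8% and 69.0% of cells, and BMP1, a procollagen protease, had 850.4 and 386 CPM and was seen in 90.4% and 72.2%. These last 2 were lower across the population, though not called without scaling, with 87.3% of resistant cells below the treatment-naïve median for ACTA2 and 81.9% for BMP1. Under the size rule, FN1, fibronectin, had 23324 and 40218 CPM, and LGALS1, galectin-1, had 67431 and 103610.0 CPM.

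Of the adhesion molecules, 3 that were higher are described here, chosen after their values were seen, and adhesion genes were not a list of their own. NCAM1, a neural cell adhesion molecule, had 6.07 and 227 CPM and was seen in 2.34% (1.95 to 2.78) of treatment-naïve and 55.0% (53.9 to 56.2) of resistant cells. Only 0.597% of resistant cells had more than 5 NCAM1 UMIs, and its effective share was 80.9%, so NCAM1 was present at a low level in most of the population. ALCAM, CD166, had 95.3 and 606 CPM and was seen in 26.9% and 77.5% of cells, with effective shares of 43.0% and 68.4%. CDH6, a type II cadherin, had 119 and 441 CPM and was seen in 26.0% and 65.0% of cells. The adhesion receptor gene VCAM1, with 118 and 68.3 CPM, was under the rule, and CDH3 was lower.

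Basal epithelial genes were lower or under the rule. Among 9 measured genes, 5 were called lower and 0 higher, against 22.8% lower among all measured genes, with a median log2 ratio of −1.49. KRT14, a keratin of basal cells, had 3611 and 219 CPM and was seen in 59.4% of treatment-naïve and 11.6% of resistant cells. Its effective share was 16.5% and 1.38%, and 31 resistant cells held 50% of the KRT14 UMIs of their population. KRT17, another basal keratin, had 12489 and 4456 CPM, but it was seen in 99.6% and 99.9% of cells and its effective share was 44.7% and 82.6%. KRT17 thus became lower and at the same time more even, which only 3 of the 38 lower genes with enough UMIs in both populations did.

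The other lower basal genes were found in fewer cells. TP73, a homologue of p53, had 629 and 209 CPM and was seen in 72.7% and 37.4% of cells. CDH3, P-cadherin, had 129.9 and 31.3 CPM and was seen in 19.7% and 7.45% of cells. KRT5 was rare in both, with 85 and 31 UMIs. ITGA6, the α6 integrin of basal cells, had 2025 and 1693 CPM and was under the rule.

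Among 21 measured luminal genes, 9 were called higher, 3 were lower and 9 were under the rule, with a median log2 ratio of 0.83. Of all measured genes, 24.3% were higher and 22.8% lower. KRT8, a keratin of luminal cells, had 1209.6 and 3932 CPM and was seen in 91.5% and 98.9% of cells, with effective shares of 72.6% and 73.1%. Its partner KRT18 had 7306 and 13014 CPM, a ratio of 1.78, which was under the rule. FOXA1, a pioneer factor for hormone receptors, had 21.1 and 117 CPM and was seen in 7.79% and 31.7% of cells. MUC1, an apical mucin, had 87.2 and 286 CPM and was seen in 26.1% and 57.6% of cells, and MAPT, the microtubule protein tau, had 55.5 and 277 CPM and was seen in 18.5% and 51.8%. The higher calls for ESR1, EPCAM and ERBB3 rested on 154, 135 and 168 UMIs in resistant cells, none of them in more than 2.25% of cells.

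The 3 lower luminal genes were XBP1, MLPH and CLDN4. XBP1, a factor of the unfolded protein response, had 9435 and 4616 CPM, was seen in 99.8% and 99.6% of cells and stood just inside the threshold, and it was not called without scaling. MLPH and CLDN4 were rare, at 6.07 and 0.407 CPM and at 8.45 and 2.24 CPM. CD24, a surface glycoprotein of luminal cells, was 1.97-fold (1.95 to 1.98) higher and so just outside the rule. It was seen in 75.4% of treatment-naïve and 97% of resistant cells, and its effective share was 18.6% and 55.9%, so CD24 was more widely carried although its mean was not called higher.

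Of 4 measured genes of the insulin-like growth factor (IGF) system, 3 were lower and 0 higher, with a median log2 ratio of −3.03. The fourth, the receptor gene IGF1R, had 784 and 685 CPM and was under the rule. IGFBP3, which binds IGFs and restrains their action, had 2823 CPM in treatment-naïve and 20.6 CPM in resistant cells. It was seen in 46.8% and 6.97% of cells, and cells with more than 5 UMIs made up 20.8% and 0.0569%. IGFBP5 had 7458 and 480.2 CPM with effective shares of 13.1% and 4.07%, and 110 resistant cells held 50% of its UMIs. IGFBP7 had 19502 and 4516 CPM and was still seen in 93.8% of resistant cells. Summed over the 4 IGF genes, the median cell had 23466 and 4200 CPM, and 71.8% of resistant cells lay below the treatment-naïve 5th percentile.

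Other genes of the lower group were seen in far fewer resistant than treatment-naïve cells. FCRLA, an Fc receptor-like gene of B cells, had 1754 and 67.2 CPM and was seen in 82.6% and 19.6% of cells. MME, the surface peptidase CD10, had 345 and 16.5 CPM and was seen in 49.1% and 4.39% of cells. ALDH1A1, an aldehyde dehydrogenase used to mark stem-like breast cancer cells, had 98.9 and 0.373 CPM on 2118 and 11 UMIs and was seen in 18.8% and 0.156% of cells. The last share lies within the range of the 17 blood-lineage genes, which cannot measure carry-over of a transcript abundant in another population. EPHA6, an ephrin receptor, had 76 and 0 UMIs, which made it at least 34.8-fold lower when the 0 was set to the 3 UMIs that such a count allows.

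Several regulators were lower across the population. EBF4, a transcription factor, had 506 and 97 CPM and was seen in 78.4% and 25.9% of cells. CD40, a costimulatory receptor, had 634 and 119 CPM and was seen in 80.8% and 31.3% of cells. C1S, a serine protease of the complement system, had 7006 and 2533 CPM, and 90.6% of resistant cells lay below the treatment-naïve median. In treatment-naïve cells the effective shares of EBF4 and CD40 were 79.7% and 76.4%, and in resistant cells they were 24.1% and 47.9%.

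Evenness changed with direction over the panel. Of the 42 higher genes with at least 200 UMIs in both populations, 37 had a larger effective share in resistant cells and 5 a smaller one, and the median went from 39.9% to 56.5%. Of the 38 lower genes, 3 had a larger and 35 a smaller one, and the median went from 50.9% to 31.6%. Among 126 genes under the rule, 76 had a larger and 50 a smaller one, with medians of 63.3% and 65.7%. PDGFRB, the PDGF receptor β, was such a case, with 463 and 419.7 CPM but effective shares of 10.2% and 40.6%. Level and effective share come from the same counts, so these are descriptions.

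**Figure D4:**
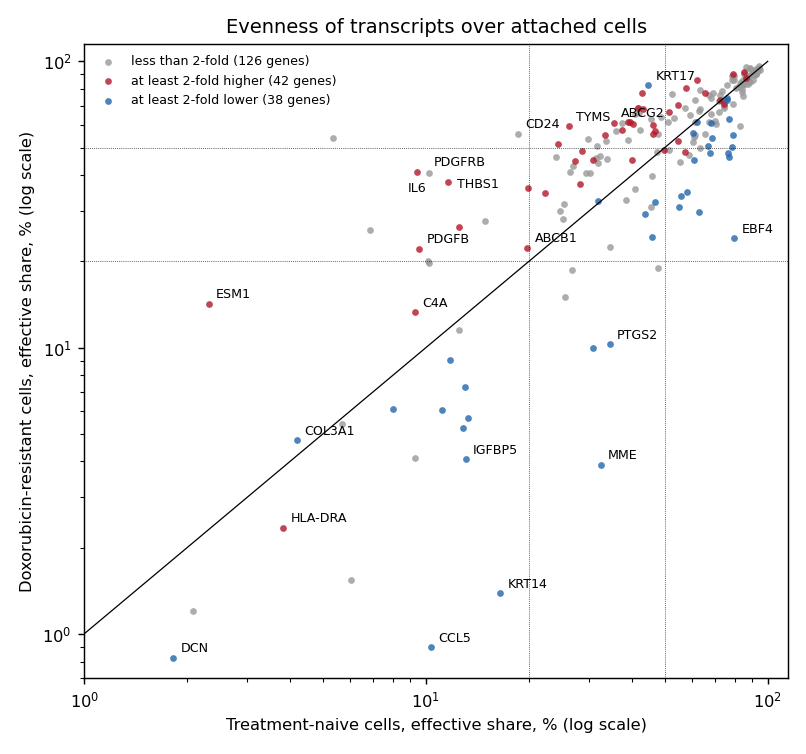
Effective share of each gene with at least 200 UMIs in both populations, treatment-naïve cells on the horizontal and doxorubicin-resistant cells on the vertical axis, in percent on log scales. The solid line marks equal shares and the dotted lines 20% and 50%; 37 of 42 higher genes lie above the line and 35 of 38 lower genes below it, with KRT17 (44.7% and 82.6%) among the exceptions.

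The 13 higher genes held by a subset of resistant cells included those with the largest folds. GPNMB, a transmembrane glycoprotein of melanosomes and macrophages, had 89 UMIs in treatment-naïve and 12902 in resistant cells. Its level was 4.15 and 438 CPM, and it was seen in 1.60% and 38.6% of cells, but its effective share in resistant cells was 10.1% and 337 cells held 50% of its UMIs. CXCL14, an epithelial chemokine, had 5.83 and 386 CPM and was seen in 1.98% and 23.1% of cells. Its effective share was 1.82%, and 59 cells held 50% of its UMIs. TCL1A, a coactivator of the kinase AKT, had 4 and 582 UMIs and was seen in 0.0754% and 3.87% of cells. STK32B, a serine/threonine kinase, had 23 and 1627 UMIs and was seen in 0.396% and 12.8% of cells.

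Several of these genes were detected in few cells. CCL4, a chemokine of activated leukocytes, had 516 UMIs in 0.569% of resistant cells, and 4 cells held 50% of them. TNF, tumour necrosis factor, was seen in 1.62% of resistant cells, and 14 cells held 50% of its UMIs. CCNA1, a cyclin best known from the testis, was seen in 4.45% of cells and had an effective share of 2.11%, and for IL1RN the values were 5.05% and 2.60%. ESM1, a proteoglycan of endothelial cells, was detected more widely. It had 14.1 and 215 CPM and was seen in 3.37% and 31.8% of cells, with effective shares of 2.32% and 14.3%. CDKN2A, the gene of the p16 inhibitor, rested on 2 and 66 UMIs, a ratio of 24.0 (6.39 to 202), and 5 cells held 50% of the latter.

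Genes of MHC class II, which present peptides to helper T cells, were higher and held by a subset. HLA-DRA had 13.4 and 86.3 CPM and was seen in 3.52% and 6.85% of cells, with effective shares of 3.83% and 2.35%. HLA-DRB1 had 5.23 and 30.4 CPM and was seen in 1.24% and 3.07% of cells. HLA-DQB1 rested on 9 and 100 UMIs, too few for an effective share, and CIITA, their shared transcriptional activator, on 27 and 234. CD74, the chaperone of class II molecules, had 65.3 and 64.1 CPM, a ratio of 1.02 (0.951 to 1.09). Of the 8 measured interferon and antigen presentation genes, 4 were higher and 0 lower, and 0 of the 5 with enough UMIs were more even in resistant cells. The 4 higher genes were the class II genes above and CIITA, all of them rare. Summed over the 8 genes, the median treatment-naïve cell had 75933 CPM and the median resistant cell 52122 CPM. Only 10.1% of resistant cells lay above the treatment-naïve median, so the summed level was lower.

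Whether the subset genes were found in the same cells was described for HLA-DRA, GPNMB and KRT14, which were chosen after their values were seen. Cells with at least 2 UMIs of the gene were set beside the remaining resistant cells, with every cell thinned to 1000 UMIs, because the former were deeper, at medians of 4461 and 3788.5 UMIs for HLA-DRA. The 270 resistant cells with HLA-DRA (3.84%) had CD74 in 34.4% against 1.35% of the rest and HLA-DRB1 in 25.5% against 0.467%. They held 84.6% of the HLA-DRB1, 75% of the CD74 and 89.0% of the HLA-DQB1 UMIs of the population. AREG, the growth factor amphiregulin, was seen in 55.3% of them against 15.2%, and CDH3 in 12.4% against 1.99%. GPNMB was less frequent in them, at 4.66% against 21.7%.

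Among treatment-naïve cells the association was in part the same. There, 58 cells (1.09%) had at least 2 HLA-DRA UMIs, and CD74 was seen in 35.0% of them against 3.32% of the rest and HLA-DRB1 in 7.53% against 0.320%. They held only 15.7% of the CD74, 25.9% of the HLA-DRB1 and 11.1% of the HLA-DQB1 UMIs of their population. CIITA was seen in 0.162% of them and 0.135% of the rest, whereas in resistant cells it was seen in 6.67% of the cells with HLA-DRA and 0.592% of the rest. AREG was seen in 43.4% of these treatment-naïve cells and 37.1% of the rest.

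The 1763 resistant cells with GPNMB (25.1%) formed another set. C4A, complement component C4, was seen in 29.3% of them against 17.1% of the rest, CD14, a receptor for bacterial lipopolysaccharide, in 13.9% against 7.35% and STK32B in 8.53% against 3.53%. AREG, in contrast, was seen in 8.56% against 19.5%, and HLA-DRA in 0.860% against 4.35%. The 283 resistant cells with at least 2 KRT14 UMIs (4.02%) had AREG in 52.6% against 15.2% of the rest. IL7R, the interleukin-7 receptor, was seen in 31.0% of them against 7.74% and CDH3 in 9.13% against 2.10%. GPNMB was seen in 7.96% of them against 21.6%. Their ABCB1 level was 4376 CPM against 7866 CPM in the rest and 146 CPM in treatment-naïve cells. Before thinning they had a median of 4928 UMIs against 3772 in the rest. Whether some of these barcodes were mixtures of cells was not tested. Among treatment-naïve cells, 2607 (49.1%) had at least 2 KRT14 UMIs, and the associations with AREG, CDH3 and IL7R had the same direction. AREG was seen in 48.2% of these cells against 26.4% of the rest, CDH3 in 13.2% against 4.46% and IL7R in 14.9% against 9.14%. GPNMB, rare in treatment-naïve cells, was seen in 0.480% against 0.432%.

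**Figure D5:**
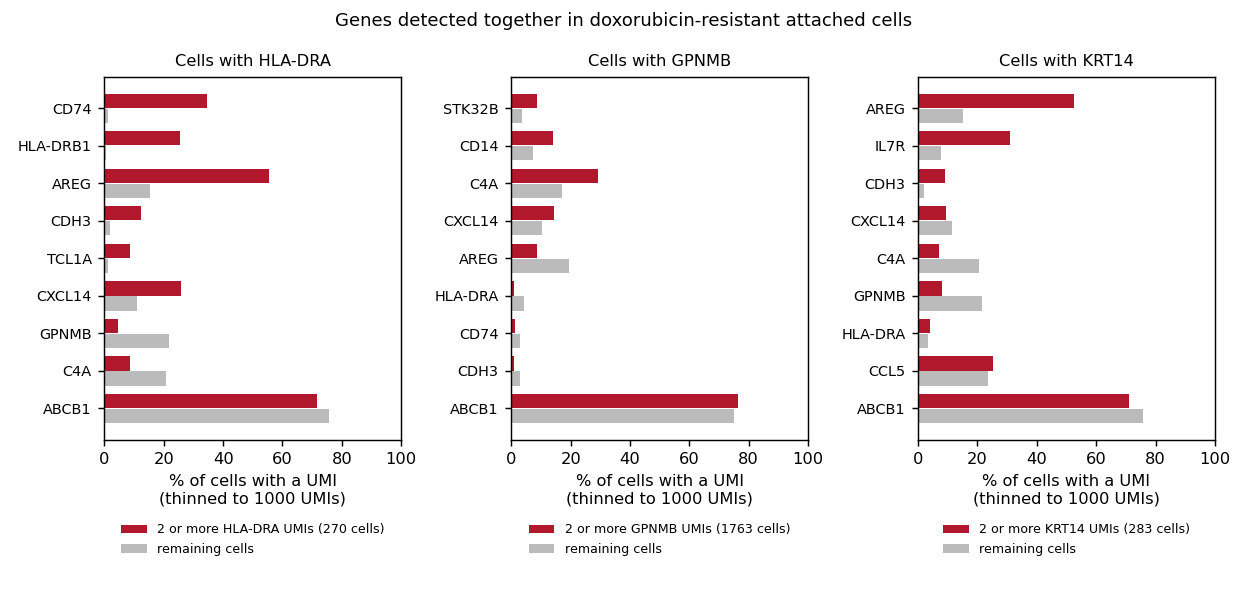
Share of doxorubicin-resistant cells with a UMI of each listed gene (horizontal axis, percent, cells thinned to 1000 UMIs) among cells with at least 2 UMIs of HLA-DRA, GPNMB or KRT14 (red) and among the remaining cells (grey). Cells with HLA-DRA or KRT14 detected AREG and CDH3 more often and GPNMB less often than the rest, cells with GPNMB detected C4A, CD14 and STK32B more often, and ABCB1 was detected at similar shares in all.

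Each cell was also compared with the mean profile of both populations, leaving out ABCB1 and ABCG2. Of the resistant cells, 96 (1.37%, 1.11 to 1.66) were nearer to the treatment-naïve profile, and of the treatment-naïve cells 281 (5.30%, 4.71 to 5.93) were nearer to the resistant profile. ABCB1 was seen in 90.6% of those 96 cells, at 5866 CPM, beside 7717 CPM in the other resistant cells. The 281 cells had 172 CPM of ABCB1 beside 145 CPM in the other treatment-naïve cells. The 96 cells held 43.6% of the CCL5, 32.6% of the KRT14, 9.11% of the PTGS2 and 7.04% of the IGFBP5 UMIs of the resistant population. For some other lower genes their part was near their part of the cells, at 1.48% for IGFBP3, 1.56% for S100A9 and 2.48% for KRT17. For others it was larger, at 7.03% for IL1B and 5.03% for AREG. Without the cells nearer to the other population, CCL5 was 33.8-fold lower in place of 18.4-fold and KRT14 24.9-fold in place of 16.5-fold. Both genes were part of the profile that chose these cells, so a larger fold without them follows from the choice. Whether any of these cells carried molecules of 2 cells was not tested.

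Growth factors and their receptors gave few shared shifts. Of 4 PDGF genes, 1 was higher: PDGFB, a ligand of PDGF receptors, with 9.52 and 135 CPM in 3.36% and 26.2% of cells. All 4 had a larger effective share in resistant cells. Of 23 growth factor and kinase genes, 4 were higher and 4 lower, beside 24.3% and 22.8% of all measured genes. AREG had 2543 and 614 CPM and was seen in 54.1% and 31.6% of cells, and NRG1, a ligand of ERBB3, had 22.1 and 52.8 CPM and was seen in 7.41% and 17.3%. EDNRA, an endothelin receptor, had 578 and 165 CPM and was seen in 76.1% and 31.7% of cells. FGFR4 and EGF were rare and lower, with 287 and 56 UMIs and with 144 and 58 UMIs, and FGF18 was rare and higher, with 27 and 112 UMIs.

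Of 16 measured transcription factor genes, 2 were higher and 4 lower. MYB, a factor of progenitor cells, had 2.99 and 44.0 CPM and was seen in 1.15% and 13.4% of cells, and JUN, a subunit of AP-1, had 1145 and 2597 CPM and was seen in 85.9% and 96.4% of cells. The lower ones were EBF4, FOXO1, a forkhead factor restrained by AKT, with 182 and 37.9 CPM, IKZF2, with 272 and 109 CPM, and RUNX3, with 6.82 and 1.63 CPM. In the Wnt, Notch and Hedgehog pathways, 1 of 8 genes was higher and 3 were lower, and without scaling 3 were higher and 2 lower. DKK1, a secreted Wnt antagonist, had 2.75 and 30.7 CPM and was seen in 0.943% and 9.88% of cells. GLI1, the transcriptional effector of Hedgehog signalling, had 251 and 38 CPM and was seen in 49.3% and 12.9% of cells, TCF4 had 30.7 and 13.3 CPM and NOTCH1 had 5.88 and 2.00 CPM. The calls for TCF4 and IKZF2 were lost without scaling.

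Of 10 measured p53 targets and apoptosis regulators, 0 were higher and 3 lower, beside 24.3% and 22.8% of all measured genes, with a median log2 ratio of −0.29. Without scaling the direction turned, with 3 higher genes, 1 lower gene and a median of 0.17, and CDKN1A and BBC3 were no longer called. CDKN1A, the gene of the p21 inhibitor of cyclin-dependent kinases, had 7904 and 3178 CPM, and 90.4% of resistant cells lay below the treatment-naïve median. BBC3, the apoptosis effector PUMA, had 31.0 and 11.5 CPM, and CASP5, an inflammatory caspase, had 12.8 and 2.24 CPM. Among D-type and A1 cyclins and inhibitors, 2 of 7 were higher, namely CCNA1 and CDKN2A, and 2 lower, namely CDKN1A and CCND2. CCND2, cyclin D2, had 162 and 2.61 CPM and was seen in 24.8% and 1.04% of cells.

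Of 12 nucleotide synthesis and detoxification enzymes, 5 were higher and 3 lower, beside 24.3% and 22.8% of all measured genes, with a median log2 ratio of 0.36. HPRT1, the purine salvage enzyme, had 1322 and 3627 CPM with effective shares of 86.5% and 87.6%, and NME1, a nucleoside diphosphate kinase, had 6217 and 15322 CPM with effective shares of 79.3% and 90.4%. For these 2 genes 69.2% and 68.3% of resistant cells lay above the treatment-naïve 95th percentile. PHGDH, the first enzyme of serine synthesis, had 6703 and 1940.2 CPM, and 95.7% of resistant cells lay below the treatment-naïve median. Of 43 measured genes of the PAM50 breast cancer subtype classifier, 14 were higher and 8 lower, and 9 of the 14 belong to the cell cycle groups above.

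Ligands and receptors of immune cells were mostly lower. Of 13 measured costimulatory and checkpoint genes, 1 was higher and 7 lower, beside 24.3% and 22.8% of all measured genes, with a median log2 ratio of −1.09. The higher one was PVR, the poliovirus receptor, with 988 and 2019 CPM in 84.0% and 95.9% of cells, and it was not called with the median of ratios. Besides CD40, the lower ones included C10orf54, the checkpoint gene VISTA, with 935 and 439 CPM in 83.4% and 70.6% of cells, a call that was lost without scaling. Others were rare, such as CD86 with 160 and 25 UMIs, TNFSF13 with 469 and 73 and ICOSLG with 293 and 82. Of 7 angiogenic genes, ESM1 was higher and VEGFA, vascular endothelial growth factor A, was lower, with 12839.8 and 4889 CPM in 99.9% and 99.8% of cells, a call that was lost without scaling.

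Markers of blood cells gave no set that moved together. Of 5 measured T and NK lymphocyte markers 2 were higher, PTPRC with 5 and 81 UMIs and CD244 with 7 and 196, whereas the defining marker CD3D had 129 and 216 UMIs, a ratio of 1.22 (0.975 to 1.53). PTPRC was seen in 0.967% and CD244 in 2.09% of resistant cells. Of 4 B lymphocyte and plasma cell markers, TCL1A was higher and CD38 and FCRLA were lower, and CD79A had 81 and 113 UMIs, a ratio of 1.01 (0.756 to 1.37). Of 5 myeloid markers, GPNMB was higher and CD14 lower, with 700.3 and 122 CPM.

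Paclitaxel-resistant cells of the same cartridge were set beside these values for the genes on which the description turns, and both resistant populations share the treatment-naïve control. ABCB1 had 4648 CPM in paclitaxel-resistant and 7691 CPM in doxorubicin-resistant cells and was seen in 93.1% and 88.4% of them, with effective shares of 32.1% and 22.3%. IL6 had 3947 and 14212 CPM in the same order. GPNMB had 57.2 and 438 CPM, CXCL14 22.6 and 386 CPM, STK32B 1.92 and 55.2 CPM, and TCL1A 0.214 and 19.8 CPM. HLA-DRA was seen in 2.78% of paclitaxel-resistant and 6.85% of doxorubicin-resistant cells. These subset genes thus had lower levels in paclitaxel-resistant cells, which were not replicated either. PDGFB was the other way round, with 445 and 135 CPM. Among the lower genes, MME had 116 and 16.5 CPM, COL3A1 565 and 146 CPM and KRT14 34.6 and 219 CPM.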

How the data were processed

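The deposited values are counts of molecules (UMIs) per panel gene and cell, in 1 matrix per population, after the adjustment named RSEC in the study's methods, made from BD Rhapsody reads on a cloud platform. The submitters' processing notes name hg38. Filters on cells before deposit, and the treatment of cells with more than 1 sample tag, are not given in the sources used here. All deposited cells were used, and no doublet caller was run. The 1% of cells with most UMIs were left out in an alternative.

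UMIs were summed per gene over the cells of a population, as in the study's methods, and then divided by the population's total to give CPM, a scaling those methods do not state. The fold is the ratio of CPM values with an exact conditional (Clopper-Pearson) 95% interval. Genes passed at a fold of 2 when the population with the higher level had at least 50 UMIs, and a count of 0 was set to 3. The effective share was computed from pairs of UMIs in the same cell for genes with at least 200 UMIs, and shares after thinning were computed exactly at 1000 and 2000 UMIs, the latter leaving out 511 treatment-naïve and 564 resistant cells. Scripts were tested on simulated data and run in Python 3.11.15 with numpy 2.4.6, scipy 1.17.1 and pandas 2.3.3. Coordinates and promoters are from RefSeq on GRCh38.p14.

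Named genes were the 20 with the largest fold in each direction, the 2 highest and 2 lowest members of each of 24 gene lists with every member past the size rule, the 10 lowest and 10 highest by effective share, and genes singled out in the study. A few of the genes so named are not reported here. The members and lists were chosen with earlier results of these data known. Alternatives were other scalings, the mean of each cell's CPM, other UMI minimums and other limits of the effective share. Leaving out cells nearer to the other population was added after the data had been seen.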

Additional observations from a re-analysis of the deposited data

How the results depend on the processing

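No paired analysis was possible because each group is 1 population without a replicate. Over the alternatives the count of higher genes ran from 55 to 97 and that of lower genes from 47 to 65, beside 65 and 61. An effective share under 10% as the limit left 8 of 13 higher genes and 6 of 16 lower genes as held by a subset, by construction. No gene past the size rule turned its direction. Genes under the rule could, since PDGFRB and ITGA6 had log2 ratios of 0.32 and 0.20 without scaling in place of −0.14 and −0.26. The mean of each cell's CPM gave 66 higher and 60 lower genes, a minimum of 50 UMIs in the resistant population gave 65 and 51, and leaving out the 1% of cells with most UMIs gave 65 and 61. Without cells nearer to the other population there were 67 and 61, and 13 and 16 genes were held by a subset. Differences between cultures cannot be told apart from drug resistance with 1 culture each.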
